A study of Mus musculus with 24 samples.

Results

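Cells of brown adipose tissue (BAT) and of white adipose tissue (WAT) were compared on day 8 of differentiation, without epigallocatechin gallate (EGCG, the green tea catechin that the study tested). The libraries were chosen by their labels alone (depot, control treatment, day 8). They number 6 of the 24 libraries of the series, with 3 of BAT and 3 of WAT control cells. The comparison asks how cells from a brown and a white depot differ once both have been taken through the same adipogenic culture.

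Both groups came from C57BL/6 mice aged 6 weeks. Collagenase released the stromal vascular cells, the mixed fraction of fat that holds adipocyte precursors, from the inguinal WAT and the interscapular BAT. The cells grew to near confluence, received insulin, dexamethasone and isobutyl-methylxanthine until day 4, and were then kept with insulin and T3 (thyroid hormone) until day 8. Control cells received DMSO, the solvent of EGCG. The cells are cultures of a mixed fraction and not adipocytes sorted from tissue, and the labels do not say that the replicates were separate isolations, so p-values measure only the spread between these libraries. Total RNA was sequenced with Illumina libraries. The deposited values are FPKM, which are reads scaled to gene length and to the reads on genes of a library.

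Brown adipocytes burn fatty acids in abundant mitochondria and release the energy as heat through UCP1, a proton carrier of the inner mitochondrial membrane, when the sympathetic nervous system acts on their β-adrenergic receptors. White adipocytes store triglyceride in a single large droplet and secrete hormones such as leptin. Depots also keep a record of their place in the embryo, because interscapular brown fat descends from trunk mesoderm that also forms muscle, and because fibroblast-like cells of anterior and posterior tissues express different homeobox genes.

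Replicates 1 and 2 are in one table and replicate 3 is in another that was made separately. Tests therefore used replicates 1 and 2 of all 8 groups of the series in limma on log2(FPKM + 1), where 14095 genes were tested. A positive log2 difference is higher in BAT cells, ± gives the standard error of the fitted difference (n = 2 libraries per group), and a gene was called at a Benjamini-Hochberg adjusted p under 0.05. Replicate 3 gave a direction without a test. The 6 libraries held 39452696 to 49724056 reads on genes in replicates 1 and 2 and 16573516 to 17671381 in replicate 3. For a gene of 2 kb, 3 reads (the floor used here, which covers counting error only) were worth 0.0302 to 0.0380 FPKM in the former and 0.0849 to 0.0905 FPKM in the latter. Folds are ratios of mean FPKM over replicates 1 and 2 unless stated otherwise.

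Depot labels were checked first. Zic1, a transcription factor of brown preadipocytes, had 0.0502, 0.0444 and 0.0323 FPKM in the 3 WAT libraries (replicates 1, 2 and 3 in that order, as throughout) and 4.05, 3.57 and 4.38 FPKM in the 3 BAT libraries. Hoxc10, a homeobox gene of posterior tissue, showed the reverse, with 9.12, 8.37 and 10.2 FPKM in WAT cells and 0.0113, 0 and 0 FPKM in BAT cells. Neither gene overlapped between the depots. The cells are labelled preadipocytes, yet adipocyte genes were abundant in both depots, with Fabp4 (a fatty acid carrier) at 3731, 4312 and 3806 FPKM in WAT cells and 7489, 7602 and 7034 FPKM in BAT cells. Xist was detected and the 4 Y-linked genes examined were at 0 in all 6 libraries.

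On the scale of the whole transcriptome, BAT and WAT control cells differed in 7555 of the 14095 genes tested (53.6%). Of these, 4460 (31.6% of the genes tested) were higher and 3095 (22.0%) were lower in BAT cells. The difference reached 2-fold in 999 genes, 587 of them higher and 412 lower in BAT cells. In replicate 3, 7136 of the 7555 called genes (94.5%) had the same direction, against 78.7% of all genes tested. Of the 999 genes with at least a 2-fold difference, 944 (94.5%) had the same direction there. A larger difference thus went with no higher share. The balance of directions depended on the scaling. Among called genes 59.0% were higher in BAT cells with the deposited scaling, 52.7% with median-ratio scaling (4008 higher and 3601 lower) and 48.9% with quantile normalization (3739 higher and 3902 lower). The median over all genes tested was 0.05 with the deposited scaling, and it stands beside the medians of the gene groups below. Because calls were so common, a count within a gene group is to be read against these shares.

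**Figure D1:**
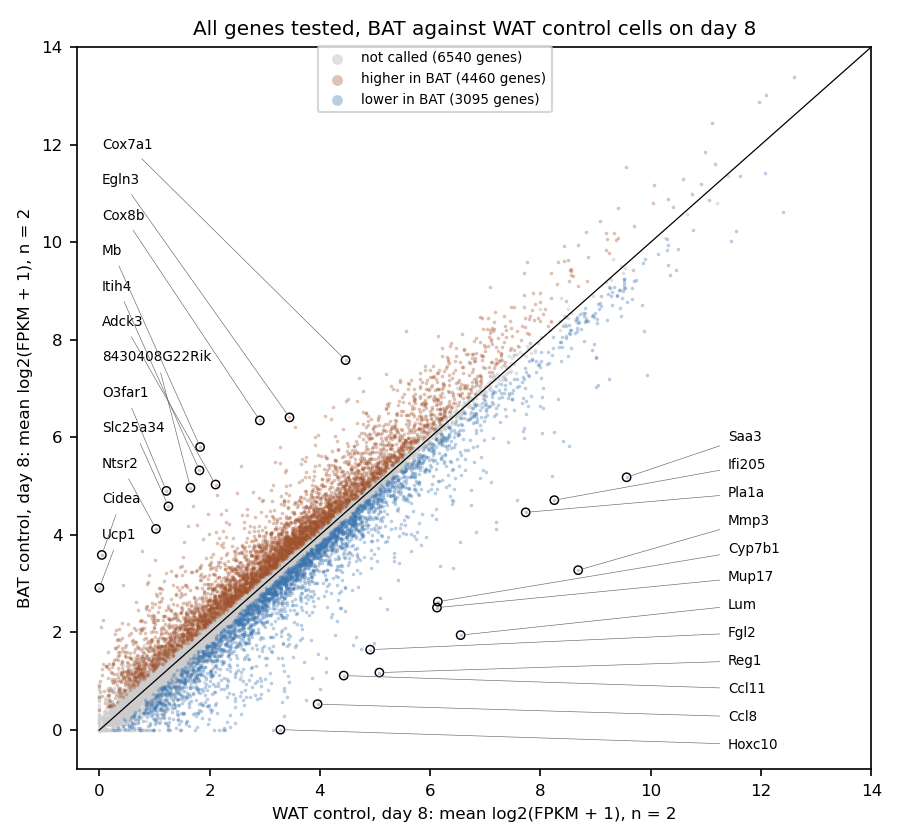
Each point is 1 of the 14095 genes tested, with the mean log2(FPKM + 1) of replicates 1 and 2 in WAT control cells on the x axis and in BAT control cells on the y axis, both on day 8. Brown points are the 4460 genes called higher and blue points the 3095 genes called lower in BAT cells. The line marks equal values. Circled genes are the 12 of each direction with the largest differences among called genes that met the rule for naming. That rule asked for a mean of at least 5 FPKM in the higher group and the same direction in replicate 3. Cidea and Ucp1 sit at the left edge near 0 in WAT cells and Hoxc10 at the lower edge near 0 in BAT cells.

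Genes were ranked among called genes with a mean of at least 5 FPKM in the higher group and the same direction in replicate 3. Among these, the highest log2 differences were those of Mb, O3far1, Cidea, Itih4 and Cox8b. The lowest were those of Mmp3, Lum, Saa3, Reg1 and Mup17. In all 24 genes named by size of the difference, the 3 BAT libraries and the 3 WAT libraries did not overlap, and the log2 difference kept its sign in replicate 3, as the rule for naming required. Over all 14095 genes tested, the libraries also did not overlap in 4218 genes with BAT higher and 2745 with WAT higher. Choosing genes by size favours groups without overlap. Mb, which encodes the oxygen-binding protein myoglobin, had 2.87, 2.25 and 2.95 FPKM in WAT cells and 55.1, 54.5 and 49.8 FPKM in BAT cells (chr15:76845919-76881100 in mm9, log2 difference 3.97 ± 0.16, adjusted p = 6.1e-09). O3far1, the receptor for long-chain fatty acids also named Ffar4 or GPR120, had 1.05, 1.63 and 1.47 FPKM in WAT cells and 29.9, 27.9 and 31.3 FPKM in BAT cells (3.69 ± 0.18, adjusted p = 2.2e-08). Each was more than 20-fold higher in BAT cells, at 21.4-fold and 21.6-fold.

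Ucp1 (chr8:85814247-85822355) had 0 reads in all 3 WAT libraries and 6.97, 6.15 and 4.2 FPKM in the BAT libraries (2.92 ± 0.11, adjusted p = 4.7e-09). Against the floor of 3 reads per library this was at least 159.7-fold higher in BAT cells. Cidea, a lipid droplet protein typical of brown fat, had 0, 3 and 5 reads in the WAT libraries and 11.1, 11 and 8.51 FPKM in the BAT libraries (3.54 ± 0.15, adjusted p = 1.2e-08). Both genes were thus at or near the limit of detection in WAT cells, while their level in BAT cells was modest beside Cox7a1 at 191, 189.8 and 176 FPKM.

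Cox8b and Cox7a1 encode the heart and muscle forms of 2 subunits of cytochrome c oxidase and are also typical of brown fat. Cox8b had 6.17, 6.88 and 6.5 FPKM in WAT cells and 84.8, 76.3 and 76.9 FPKM in BAT cells (3.44 ± 0.23, adjusted p = 2.5e-07). Cox7a1 had 22.5, 19.7 and 17.6 FPKM in WAT cells (3.12 ± 0.15, adjusted p = 2.1e-08). The other genes of the upper end were Itih4 (15.3-fold), a secreted protein known from liver plasma; Slc25a34 (16.2-fold), a mitochondrial carrier; Ntsr2 (15.8-fold), a neurotensin receptor; Egln3 (8.46-fold), a prolyl hydroxylase of the hypoxia pathway; Adck3 (9.56-fold), a kinase-like protein needed for coenzyme Q synthesis; and 8430408G22Rik (13.6-fold), named Depp1 in RefSeq. Their adjusted p was between 2.1e-09 and 8.7e-08.

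At the lower end, Mmp3 (chr9:7445822-7455972), a matrix metalloproteinase, had 539.7, 312 and 373 FPKM in WAT cells and 8.53, 8.87 and 10.9 FPKM in BAT cells, which was 49-fold lower in BAT cells (-5.41 ± 0.21, adjusted p = 5.3e-09). Lum, the matrix proteoglycan lumican, had 107, 80.7 and 81.3 FPKM in WAT cells and 2.68, 3.03 and 2.89 FPKM in BAT cells (-4.61 ± 0.19, adjusted p = 9.9e-09). Saa3, a serum amyloid A protein made by adipocytes and macrophages, had 728, 783 and 637 FPKM in WAT cells and 33.7, 36.9 and 32.2 FPKM in BAT cells (-4.38 ± 0.18, adjusted p = 9.4e-09). These 3 genes were far above the floor in both depots, so their folds rest on many reads.

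The remaining genes of the lower end were Reg1 (27.6-fold lower in BAT cells), a secreted C-type lectin; Mup17 (14.8-fold), a major urinary protein; Ifi205 (12.1-fold), an interferon-inducible gene; Cyp7b1 (13.5-fold), an oxysterol hydroxylase; the chemokines Ccl8 (32.7-fold) and Ccl11 (18.1-fold); the phospholipase Pla1a (10.0-fold); Fgl2 (14.7-fold), a fibrinogen-like protein; and Hoxc10. Adjusted p in these genes was between 5.8e-11 and 6.5e-07. Mup17, Ifi205 and Saa3 belong to families of near-identical genes, so their reads may have been split or dropped. Mb, Cidea, 8430408G22Rik, Adck3, Cyp7b1, Hoxc10 and Fgl2 overlap another annotated gene, from which reads cannot be told apart where the strand was not used.

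**Figure D2:**
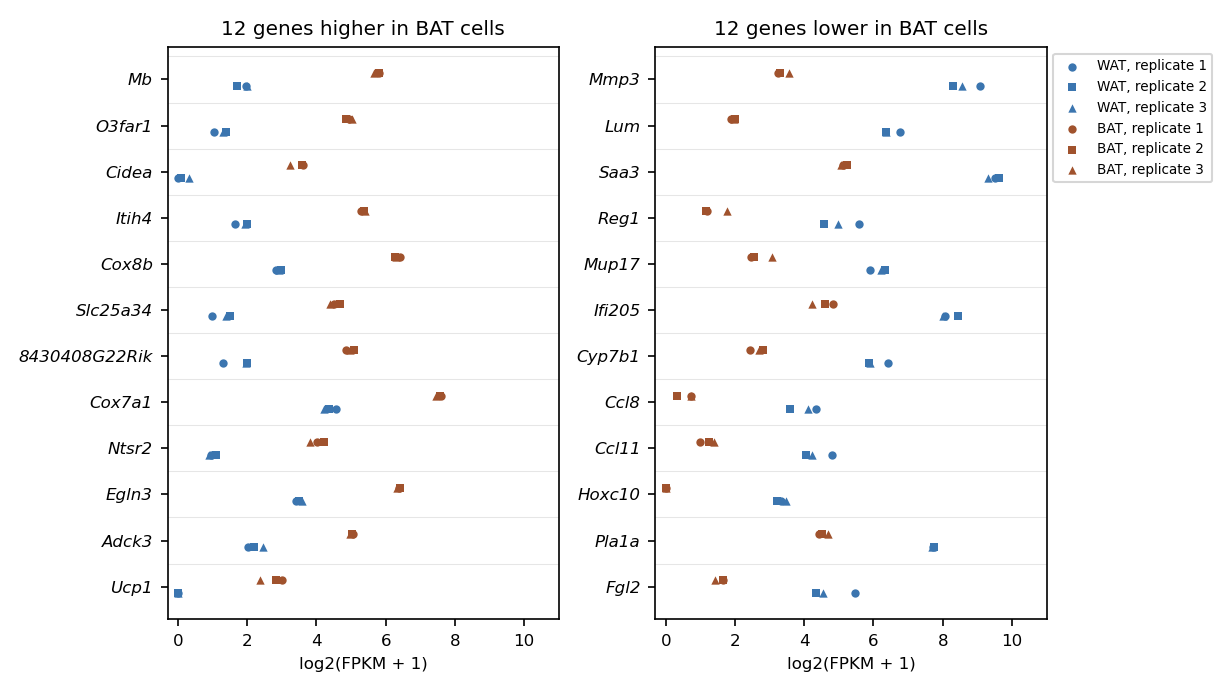
Values of the 24 named genes in each library, as log2(FPKM + 1) on the x axis, with WAT control cells in blue, BAT control cells in brown, and replicates 1, 2 and 3 as circle, square and triangle. In every gene the 3 BAT libraries lie on one side of the 3 WAT libraries, with Ucp1 at 0 in all 3 WAT libraries and Hoxc10 at or near 0 in the BAT libraries.

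Genes that mark the brown lineage were higher in BAT cells. Of 9 brown identity genes, 8 were tested and all 8 were called higher, with a median log2 difference of 0.92. Zic1 had the largest difference (2.2 ± 0.08, adjusted p = 4.1e-09), and the 14, 10 and 3 reads it had in the WAT libraries put its fold at 80.5. Ebf2, a factor that opens brown fat enhancers, had 9.02, 9.86 and 7.52 FPKM in WAT cells and 20.5, 19.6 and 13.2 FPKM in BAT cells (1.01 ± 0.08, adjusted p = 6.1e-07). Prdm16, a coregulator that sets the brown against the muscle fate, was low in both, with 1.11, 1.05 and 0.876 FPKM in WAT cells and 2.37, 2.22 and 1.74 FPKM in BAT cells (0.66 ± 0.08, adjusted p = 3e-05). Mpzl2, Ebf3, Hspb7 and Pdk4 were also higher, and Lhx8 by the smallest margin (0.32 ± 0.06). In Hspb7 and Pdk4, WAT replicate 1 lay below both other WAT libraries. Without it their differences fell from 0.78 to 0.32 and from 1.76 to 1.29, in that order. Lhx8 and Hspb7 lost their calls when the 6 libraries alone were fitted with the replicate number as a block (Lhx8 0.23, adjusted p = 0.075; Hspb7 0.63, adjusted p = 0.056).

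Genes of the beige adipocyte, the thermogenic cell that can appear in white depots, gave 0 higher, 3 lower and 3 not called among the 6 tested of 8, with a median of -0.27. Tbx1, one of the lower genes, had 1.35, 1.95 and 1.29 FPKM in WAT cells and 0.0121, 0.0571 and 0.223 FPKM in BAT cells (-1.35 ± 0.13, adjusted p = 5.8e-06). Shox2 and Slc27a1 were the other lower genes.

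The Hox genes, which record position along the body axis, divided by their place in the clusters. Of 39 Hox genes 25 were tested, and 10 were higher, 7 lower and 8 not called. In paralogue groups 1 to 5, which act in anterior regions, 8 of the 11 tested were higher and 0 lower in BAT cells. In groups 6 to 8, 2 of 7 were higher and 2 lower. In groups 9 to 13, which act in posterior regions, 0 of 7 were higher and 5 lower. Hoxa5, the anterior gene with the largest difference, had 1.96, 2.48 and 2.15 FPKM in WAT cells and 8.44, 8.48 and 8.05 FPKM in BAT cells (1.56 ± 0.11, adjusted p = 3.8e-07). Hoxa3 (1.26 ± 0.15), Hoxa4 (1.17 ± 0.18) and Hoxa2 (1.04 ± 0.11) were higher too.

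Posterior members of the Hoxa and Hoxc clusters were close to undetected in BAT cells. Hoxa10 had 4.01, 3.7 and 3.79 FPKM in WAT cells and 0, 0 and 1 reads in the BAT libraries (-2.28 ± 0.08, adjusted p = 3.8e-09), which was at least 141-fold lower in BAT cells against the floor. Hoxa9 had 2.47, 3.37 and 3.31 FPKM in WAT cells and 0.10, 0.0864 and 0.123 FPKM in BAT cells (-1.83 ± 0.11, adjusted p = 1.1e-07). Hoxc9 had 4.3, 4.78 and 3.46 FPKM in WAT cells and 0.0996, 0.0961 and 0.262 FPKM in BAT cells (-2.33 ± 0.11, adjusted p = 1.8e-08). Hoxc10 differed most (-3.28 ± 0.09, adjusted p = 1.2e-09). In contrast, Hoxb9 (2.02, 1.7 and 1.41 FPKM in WAT cells, 1.16, 1.27 and 1.52 FPKM in BAT cells) and Hoxd9 (1.65, 1.31 and 1.91 FPKM in WAT cells, 1.89, 1.96 and 2.13 FPKM in BAT cells) overlapped between the depots and were not called. The 10 higher Hox genes became 6 without WAT replicate 2 (among those lost were Hoxb5, Hoxb6 and Hoxd8, with adjusted p of 0.078, 0.073 and 0.095). Each of these 3 was also not called without at least 1 of the BAT replicates, and Hoxb6 not without WAT replicate 1. The call of Hoxc13, the posterior gene with the smallest difference of the 5, was lost without WAT replicate 2 (-0.18, adjusted p = 0.22) and without either BAT replicate. Transcripts of the Hox clusters overlap each other (Gm20398 spans Hoxc5 to Hoxc10, for example), and Hoxa3 has 2 identifiers, of which the one with more reads was used.

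**Figure D3:**
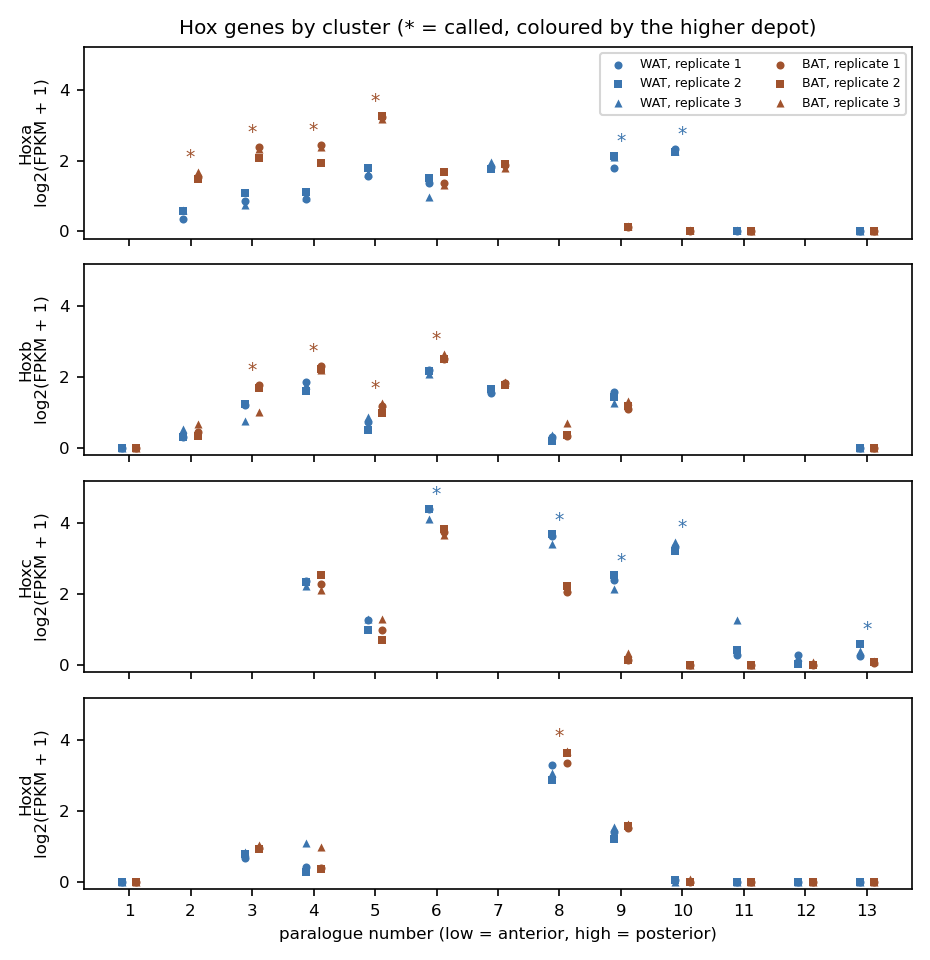
Hox genes of the 4 clusters, one panel per cluster, by paralogue number on the x axis (anterior to posterior) and log2(FPKM + 1) on the y axis, with WAT libraries in blue, BAT libraries in brown and replicates 1, 2 and 3 as circle, square and triangle. Stars mark called genes in the colour of the higher depot: the called genes shown of groups 1 to 5 are higher in BAT cells and the 5 called genes of groups 9 to 13 are higher in WAT cells.

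Other developmental factors moved in both directions, with 5 higher, 7 lower and 5 not called among 17 tested of 26. Of the 5 higher, Irx5 and Foxp2 were not called without WAT replicate 2 (adjusted p of 0.25 and 0.057). Irx1, an Iroquois homeobox gene, had 18, 18.8 and 21.4 FPKM in WAT cells and 2.68, 3.02 and 2.44 FPKM in BAT cells (-2.33 ± 0.12, adjusted p = 4.1e-08). Emx2 (-1.70 ± 0.11), Irx2 (-1.68 ± 0.09) and Tbx15 (-0.69 ± 0.08), the last a T-box factor, were lower in BAT cells as well. Six2, a homeobox gene of head and trunk mesenchyme, had 0.0286, 0.0473 and 0.0286 FPKM in WAT cells and 1.21, 1.59 and 1.72 FPKM in BAT cells (1.21 ± 0.11, adjusted p = 2.6e-06). Pax3, a factor of the dermomyotome, had 1, 1 and 0 reads in the WAT libraries and 0.829, 0.597 and 0.425 FPKM in the BAT libraries (0.76 ± 0.13, adjusted p = 0.00032).

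Thermogenic effectors were mostly higher in BAT cells. Of 20 genes 17 were tested, and 14 were higher, 0 lower and 3 not called, with a median of 1.28. Kcnk3, a potassium channel of brown adipocytes, had 4.56, 5.32 and 6.56 FPKM in WAT cells and 42.7, 40.6 and 39.9 FPKM in BAT cells (2.85 ± 0.13, adjusted p = 1.5e-08). Dio2, the deiodinase that activates thyroid hormone inside the cell, had 0.536, 0.257 and 0.114 FPKM in WAT cells and 2.59, 2.16 and 1.83 FPKM in BAT cells (1.28 ± 0.12, adjusted p = 5.1e-06). Ucp3, a homologue of Ucp1, was 4.26-fold higher and Letmd1, a mitochondrial membrane protein, 2.33-fold. The 3 genes not called were Elovl3 (2.05, 1.5 and 1.73 FPKM in WAT cells, 2.27, 1.2 and 1.53 FPKM in BAT cells), Fabp3 and Fgf21. Elovl3, a fatty acid elongase of cold-exposed brown fat, therefore overlapped between the depots. Genes of creatine and calcium cycling, which can produce heat without UCP1, gave 3 higher, 2 lower and 4 not called among 9 tested of 12 (median 0.10), and Atp2a2, the calcium pump of this cycle, was lower in BAT cells (-0.51 ± 0.06, adjusted p = 3.6e-05). The 3 higher genes, Atp2a1, Gamt and Ckb, each lost the call without 1 or more of the 4 libraries tested.

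Isoform pairs within one library need no scaling between libraries. The ratio of Cox7a1 to the ubiquitous Cox7a2 was 0.389, 0.353 and 0.256 in WAT cells and 1.42, 1.33 and 1.13 in BAT cells, so the muscle form exceeded its partner in each BAT library and in no WAT library. The ratio of Cox8b to Cox8a was 0.0210, 0.0199 and 0.0180 in WAT cells and 0.112, 0.0983 and 0.0957 in BAT cells. For Cox4i2 to Cox4i1 it was 0.00942, 0.00714 and 0.00674 in WAT cells and 0.0148, 0.0171 and 0.0147 in BAT cells. The ratio of the adenine nucleotide carriers Slc25a4 to Slc25a5 went the other way, from 0.795, 0.693 and 0.745 in WAT cells to 0.647, 0.656 and 0.670 in BAT cells.

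Transcription regulators of the brown programme gave 12 higher, 0 lower and 6 not called among 18 tested of 20, with a median of 0.51. Ppargc1b, a coactivator of mitochondrial genes, had 1.2, 1.45 and 1.12 FPKM in WAT cells and 8.81, 7.72 and 5.53 FPKM in BAT cells (1.99 ± 0.11, adjusted p = 5e-08). Its relative Ppargc1a had 0.582, 0.983 and 0.737 FPKM in WAT cells and 3.62, 3.6 and 3.15 FPKM in BAT cells (1.38 ± 0.12, adjusted p = 1.7e-06). Esrra, a nuclear receptor that acts with both, was 2.15-fold higher (1.06 ± 0.09, adjusted p = 1.6e-06), and Ppara, the receptor that drives fatty acid oxidation genes, 3.8-fold (1.15 ± 0.14, adjusted p = 2.4e-05). The 6 not called included Nrf1 (5.48, 5.34 and 5.19 FPKM in WAT cells, 5.06, 4.52 and 4.49 FPKM in BAT cells) and Tfam (6.37, 6.78 and 7.17 FPKM in WAT cells, 6.96, 7.4 and 6.53 FPKM in BAT cells), general activators of mitochondrial transcription, and also Cebpb, Thra, Thrb and Nfia.

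**Figure D4:**
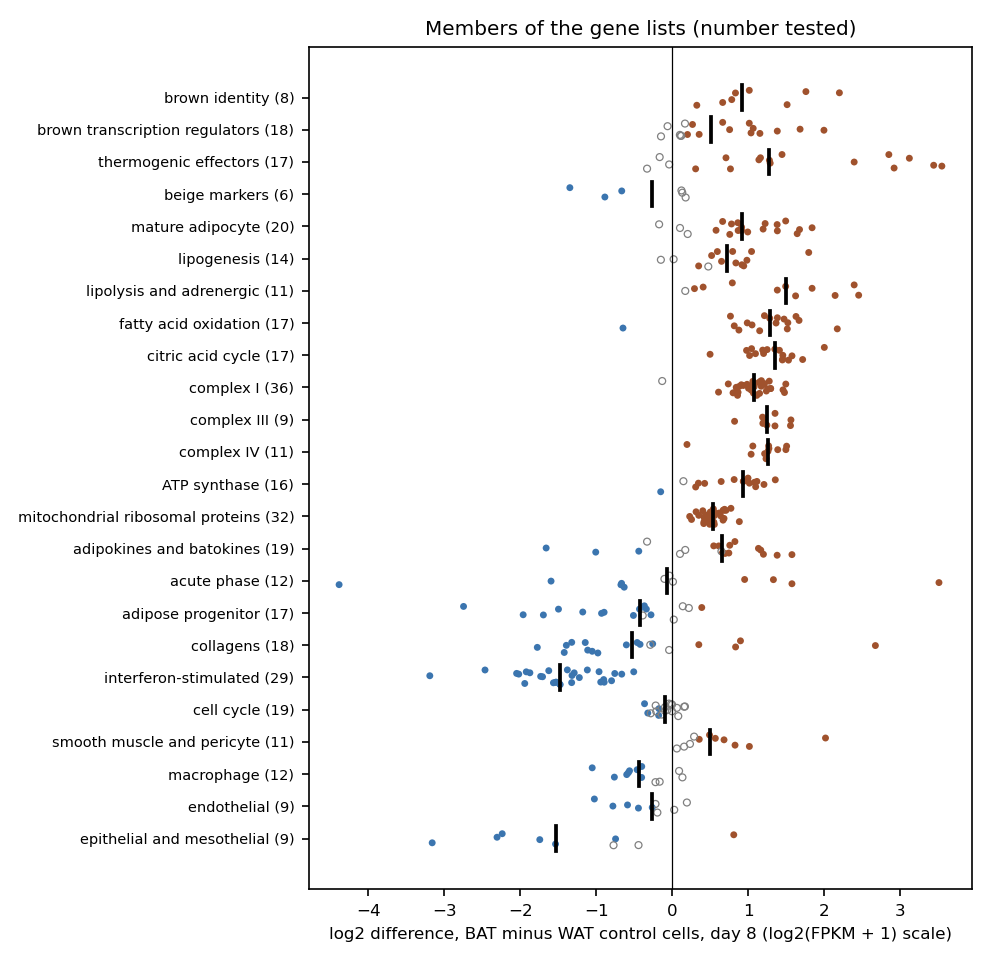
Log2 differences (BAT minus WAT control cells, day 8, log2(FPKM + 1) scale) of the tested members of 24 gene lists, with the number tested in brackets. Brown and blue points are members called higher and lower in BAT cells, open points were not called, and the bar is the list's median; the mitochondrial lists lie right of 0 almost throughout, with medians from 0.53 to 1.35, and the interferon-stimulated list lies left of 0 in all 29 members.

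Enzymes of mitochondrial fuel use were higher in BAT cells almost without exception. For fatty acid oxidation, 16 of 17 tested genes were higher and 1 was lower, with a median of 1.28. Hadhb, the β-subunit of the trifunctional protein, had 26.2, 27.1 and 32.9 FPKM in WAT cells and 124, 122 and 148 FPKM in BAT cells (2.17 ± 0.05, adjusted p = 2.9e-10). Acadm, the medium-chain acyl-CoA dehydrogenase, had 61.6, 86.5 and 78.6 FPKM in WAT cells and 228, 227 and 211 FPKM in BAT cells (1.63 ± 0.12, adjusted p = 5.6e-07). The exception was Cpt1a, the liver form of the enzyme that commits fatty acids to mitochondria, with 19.3, 14.1 and 14.4 FPKM in WAT cells and 9.8, 10.6 and 10.3 FPKM in BAT cells (-0.65 ± 0.11, adjusted p = 0.00037). Its ratio to Cpt2, the next enzyme of the carnitine shuttle, was 0.601, 0.420 and 0.410 in WAT cells and 0.119, 0.117 and 0.116 in BAT cells. Cpt1b, the muscle form, did not reach the minimum for a test (0.167, 0.241 and 0.333 FPKM in WAT cells, 0.446, 0.385 and 2.15 FPKM in BAT cells).

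All 17 genes of the citric acid cycle list were higher, with a median of 1.35. Sdhb, the iron-sulfur subunit of succinate dehydrogenase, had 62.2, 69.1 and 71.9 FPKM in WAT cells and 174, 177 and 189 FPKM in BAT cells (1.41 ± 0.07, adjusted p = 2.5e-08), and Pcx, pyruvate carboxylase, had the smallest difference of the list (0.50 ± 0.11, adjusted p = 0.0028). In the respiratory chain, 35 of 36 genes of complex I were higher (median 1.07), as were 9 of 9 of complex III (median 1.24) and 11 of 11 of complex IV (median 1.26). In complex I the gene not called was Ndufb2. In complex IV the smallest difference was that of Cox7a2l, a supercomplex factor (0.19 ± 0.05), which was lost without BAT replicate 2 (0.14, adjusted p = 0.086) and under quantile normalization (0.04, adjusted p = 0.58).

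ATP synthase departed a little from this pattern, with 14 of 16 genes higher, 1 lower and 1 not called (median 0.94). The pore subunit is encoded by Atp5g1, Atp5g2 and Atp5g3. Atp5g1 was the gene not called, while Atp5g2 was among the 14 higher genes. Atp5g1 had 7.4, 8.18 and 11.2 FPKM in WAT cells and 8.29, 9.17 and 13.3 FPKM in BAT cells (0.15 ± 0.07, adjusted p = 0.085), against 506, 575 and 550.4 FPKM and 1364, 1397 and 1366 FPKM for Atp5b of the catalytic head (1.35 ± 0.07, adjusted p = 3.9e-08). Atpif1, the inhibitor of the enzyme, was the lower gene (-0.15 ± 0.05, adjusted p = 0.033), a call lost without WAT replicate 2 (-0.13, adjusted p = 0.13) and without either BAT replicate. Mitochondrial ribosomal proteins were higher in all 32 genes, by less than the other mitochondrial lists (median 0.53, range 0.23 to 0.88). Of 13 subunits that the mitochondrial genome encodes, a list added after values had been seen, 9 were higher, 0 lower and 4 not called (median 0.63). In replicate 3, 8 of the 9 had the same direction, and mt-Co2, mt-Nd2, mt-Nd3 and mt-Nd4l were not called without BAT replicate 2 (adjusted p of 0.16, 0.065, 0.11 and 0.086). Their most abundant transcript, mt-Co1, had 5809.8, 6624 and 5683 FPKM in WAT cells and 10724, 10628 and 9424 FPKM in BAT cells (0.78 ± 0.07, adjusted p = 3.3e-06), a call that quantile normalization did not keep (0.13, adjusted p = 0.27).

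Promoters of these genes were searched for GCGCATGC, a core motif bound by the factor NRF1, and on the other strand for GCATGCGC, in the 250 bases before the start of each gene in RefSeq (build GRCm38.p6). Of 117 genes of the 7 mitochondrial lists that had an entry, 17 held it (14.5%), against 692 of all 27025 genes (2.56%). The 17 include Acadm, Etfa and Etfdh of fatty acid oxidation, Ogdh and Sdhb of the citric acid cycle, Ndufa6, Ndufa8 and Ndufa11 of complex I, and Cox6a1 of complex IV. The motif was in 0 of 5 promoters of complex III, which is 1 of the 7 lists. It was also in 0 of 15 promoters of thermogenic effectors, 0 of 12 of lipogenesis, 0 of 14 of collagens and 0 of 22 of Hox genes. At a share of 2.56%, lists this short cannot show fewer matches than all genes. The 27025 genes include genes that were not tested here. A match says only that these letters are present. To show the sequence context, the promoter stretch is given for the 5 of the 17 genes with the largest differences, 5′ to 3′ on the strand of the gene, with the motif in capitals.
Acadm: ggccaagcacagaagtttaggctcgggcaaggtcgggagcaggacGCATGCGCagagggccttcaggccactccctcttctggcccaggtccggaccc
Etfa: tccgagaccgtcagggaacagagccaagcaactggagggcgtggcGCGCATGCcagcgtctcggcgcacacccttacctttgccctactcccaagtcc
Cox6a1: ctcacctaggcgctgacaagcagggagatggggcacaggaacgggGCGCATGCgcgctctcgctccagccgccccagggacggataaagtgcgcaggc
Sdhb: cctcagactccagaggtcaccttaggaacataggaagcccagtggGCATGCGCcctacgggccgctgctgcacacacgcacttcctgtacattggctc
Ndufa6: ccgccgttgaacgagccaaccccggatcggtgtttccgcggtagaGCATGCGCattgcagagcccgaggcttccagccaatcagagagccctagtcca
These stretches lie at chr3:153944749-153944846 (minus strand), chr9:55512296-55512393 (minus strand), chr5:115349068-115349165 (minus strand), chr4:140961172-140961269 (plus strand) and chr15:82354322-82354419 (minus strand) of GRCm38.p6. The motif began 158, 105, 162, 54 and 83 bases before the start of the gene, in that order, and in Cox6a1 the matches on both strands overlap. The genes had log2 differences of 1.63 ± 0.12, 1.52 ± 0.06, 1.49 ± 0.08, 1.41 ± 0.07 and 1.29 ± 0.08.

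Genes of the mature adipocyte were also higher in BAT cells. Of 20 genes, 17 were higher, 0 lower and 3 not called (median 0.91). Pparg, the master regulator of fat cells, had 54.2, 66.2 and 54 FPKM in WAT cells and 139.5, 137 and 118 FPKM in BAT cells (1.19 ± 0.11, adjusted p = 2.4e-06). Plin1, the coat protein of the lipid droplet, was 2.34-fold higher (1.22 ± 0.14, adjusted p = 1.9e-05), and Fabp4 1.88-fold (0.91 ± 0.10, adjusted p = 1.2e-05), with the latter not called under quantile normalization (0.29, adjusted p = 0.15). Lpl (1234, 1199 and 1206 FPKM in WAT cells, 1087, 1070.2 and 775 FPKM in BAT cells), Cidec and Retn were not called. In bulk RNA, fewer cells of a type and less RNA per cell cannot be told apart, so a difference in the share of cells that had become adipocytes cannot be told apart from a difference between adipocytes for this list and for the mitochondrial ones.

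For lipogenesis, 11 of 14 genes were higher, 0 lower and 3 not called (median 0.72). Acacb, the mitochondrial acetyl-CoA carboxylase, had 11.2, 12.2 and 11.8 FPKM in WAT cells and 46.2, 40.0 and 36 FPKM in BAT cells (1.79 ± 0.10, adjusted p = 7e-08), and Scd1, the stearoyl-CoA desaturase, had 4254, 4425 and 3585 FPKM and 8438, 8207 and 7547 FPKM (0.94 ± 0.07, adjusted p = 8e-07). Acly (227, 481 and 392 FPKM in WAT cells, 452, 466 and 447 FPKM in BAT cells), Elovl6 and Me1 were not called.

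Lipolysis and adrenergic signalling gave the highest median of these lists, 1.49, with 10 of 11 tested genes higher, 0 lower and 1 not called. Adrb3, the β3-adrenergic receptor, had 20.1, 15.8 and 16.4 FPKM in WAT cells and 94, 102 and 98.5 FPKM in BAT cells (2.39 ± 0.11, adjusted p = 1.7e-08). Adrb1 was too low to be tested. Adra2a, an adrenergic receptor of opposite effect on lipolysis, was not called (2.26, 1.75 and 2.02 FPKM in WAT cells, 2.28, 2.47 and 2.49 FPKM in BAT cells). Pnpla2, the first triglyceride lipase, had 198, 236 and 246 FPKM in WAT cells and 775, 777 and 821 FPKM in BAT cells (1.84 ± 0.10, adjusted p = 7.5e-08), and its inhibitor G0s2 was higher by 2.61-fold. Plin5, which couples droplets to mitochondria, was 7.03-fold higher (2.45 ± 0.11, adjusted p = 1.7e-08).

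Among 19 tested adipokines and batokines (secreted factors of white and brown fat), 12 were higher, 3 lower and 4 not called (median 0.66). Lep, the hormone leptin that is typical of white fat, had 21.3, 21.8 and 17.8 FPKM in WAT cells and 57.1, 58.4 and 59.8 FPKM in BAT cells (1.38 ± 0.07, adjusted p = 2.1e-08). Adipoq, adiponectin, was 1.69-fold higher in BAT cells (0.76 ± 0.09, adjusted p = 4e-05) and Vegfa 2.31-fold (1.20 ± 0.04, adjusted p = 4.7e-09). The lower genes included Metrnl and Ccl2. White depot genes, a list of 12 with 11 tested, gave 5 higher, 3 lower and 3 not called (median 0.24). The 3 lower were Hoxc8, Hoxc9 and Hoxc10, and the 5 higher included Lep and the amino acid carrier Slc7a10 (1.08 ± 0.10, adjusted p = 5.1e-06). Acute phase genes were mixed, with 4 higher, 5 lower and 3 not called of 12. Haptoglobin (Hp) was 2.49-fold higher in BAT cells (1918, 2542 and 2543 FPKM in WAT cells, 5339.7, 5770.4 and 6849.7 FPKM in BAT cells), while the 5 lower genes included Saa3, Saa1 and Serpina3n.

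Genes of adipose progenitors and fibrous matrix were lower in BAT cells. Of 17 tested progenitor genes of 19, 1 was higher, 12 lower and 4 not called (median -0.43). Cd34, a surface marker of stromal progenitors, had 25.6, 22.8 and 29 FPKM in WAT cells and 2.53, 2.99 and 3.95 FPKM in BAT cells (-2.74 ± 0.13, adjusted p = 1.9e-08). Pdgfra, the receptor that marks these cells, had 186, 154 and 146 FPKM in WAT cells and 59.3, 59.2 and 54.4 FPKM in BAT cells (-1.50 ± 0.09, adjusted p = 8.3e-08). Ly6a (Sca-1) was 3.26-fold lower and Pi16 6.8-fold lower. Thy1 and Dlk1 were not called. The higher gene, Zfp423, lost its call without WAT replicate 2 or either BAT replicate (differences of 0.34 to 0.41). Of the lower genes, Dact2 lost its call under quantile normalization (-0.40, adjusted p = 0.055). Wnt2 did so when the 6 libraries alone were fitted with a replicate block (-0.36, adjusted p = 0.059). Both were also not called without WAT replicate 1 or BAT replicate 1.

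Of 18 collagen genes 4 were higher, 12 lower and 2 not called (median -0.53). Col3a1, a fibrillar collagen, had 6601, 4432 and 5146 FPKM in WAT cells and 1554, 1606 and 1764 FPKM in BAT cells (-1.77 ± 0.15, adjusted p = 1.5e-06), and Col1a1 was 2.71-fold lower (-1.42 ± 0.10, adjusted p = 5.4e-07). Against this, Col8a1, a short-chain network collagen, had 11.8, 9.6 and 9.02 FPKM in WAT cells and 70.4, 76.1 and 72.7 FPKM in BAT cells (2.67 ± 0.13, adjusted p = 2.1e-08), and Col12a1 was higher as well (0.90 ± 0.10, adjusted p = 1.9e-05). The summed FPKM of the list was 14812 to 18223 in WAT cells and 7042 to 8005 in BAT cells. Small leucine-rich proteoglycans, a list added after values had been seen, gave 3 higher, 6 lower and 1 not called among 10 tested of 12. Dcn, decorin, had 882, 1068 and 1034 FPKM in WAT cells and 157, 152 and 149 FPKM in BAT cells (-2.64 ± 0.10, adjusted p = 5.2e-09), whereas Aspn and Ecm2 were higher in BAT cells.

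Markers of other cell types that a stromal fraction can hold also differed, and their part in the results above was not tested. For epithelial and mesothelial markers, 1 of 9 tested was higher, 6 lower and 2 not called (median -1.53), with a summed level of 25.4 to 48.9 FPKM in WAT cells and 6.19 to 6.65 FPKM in BAT cells. Krt8 had 8.53, 7.34 and 9.39 FPKM in WAT cells and 0 reads in all BAT libraries (-3.16 ± 0.26, adjusted p = 1.6e-06), which was at least 204-fold lower in BAT cells. Krt14 (3.99, 3.45 and 12.3 FPKM in WAT cells), Krt5 (0.624, 0.796 and 1.35 FPKM) and Epcam (2.87, 1.89 and 2.25 FPKM) were likewise at 0 in all BAT libraries, and of these Krt5 was not called. Krt18, the partner of Krt8, had 4.58, 3.77 and 12.3 FPKM in WAT cells and 0.0921, 0 and 0 FPKM in BAT cells (-2.30 ± 0.25, adjusted p = 1.3e-05). Krt19 was measurable in both depots and was not called, and Msln, a mesothelial marker, was the higher gene (0.81 ± 0.16, adjusted p = 0.0013).

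Macrophage markers gave 0 higher, 8 lower and 4 not called among 12 tested of 13 (median -0.43; summed level 170.0 to 217 FPKM in WAT cells and 162 to 178 FPKM in BAT cells). Of the 8, C1qa, C1qc and Fcer1g were not called without WAT replicate 2 (adjusted p of 0.052, 0.51 and 0.067). Endothelial markers gave 0 higher, 5 lower and 4 not called among 9 tested of 10 (summed 31.6 to 35.2 and 24.3 to 25.2 FPKM). Smooth muscle and pericyte markers gave 7 higher, 0 lower and 4 not called among 11 tested of 12 (summed 370.2 to 496 and 474 to 618 FPKM), led by Cspg4 with 2.18, 1.6 and 2.04 FPKM in WAT cells and 10.7, 10.6 and 11.5 FPKM in BAT cells (2.01 ± 0.11, adjusted p = 5.4e-08). Schwann cell markers gave 7 of 8 higher (summed 27.1 to 31.8 and 41.7 to 46.1 FPKM).

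Skeletal muscle markers were present in both depots, and 4 of 13 tested of 21 were higher, 0 lower and 9 not called (median 0.39). The share called is near the 31.6% of all genes tested that were higher. The differences of all 13 were positive, however (smallest 0.02). In 10 of the 13 the libraries did not overlap, with BAT higher, against 4218 of all 14095 genes tested. Myog, 1 of the 4, lost its call without any 1 of the 4 libraries tested (differences of 0.57 to 0.68). The summed level of the muscle markers, 57.4 to 72.2 FPKM in WAT cells and 132 to 146 FPKM in BAT cells, included Mb, described above. Acta1, skeletal actin, had 15, 13.1 and 17.1 FPKM in WAT cells and 20.0, 18.2 and 23.8 FPKM in BAT cells (0.41 ± 0.17, adjusted p = 0.059), and Ckm, muscle creatine kinase, was under 1 FPKM in all 6 libraries. Pax7 and Myf5, markers of muscle stem cells, had 1 and 2 reads over the 6 libraries together. The 4 haemoglobin genes examined were at 0 in all 6 libraries, and Alas2, an enzyme of haem synthesis in red cells, was at no more than 0.327 FPKM. Cell cycle genes gave 0 higher, 4 lower and 15 not called of 19 (median -0.10). Of the 4, 3 had the same direction in replicate 3. Bub1b and Mcm6 were not called without WAT replicate 2 (adjusted p of 0.13 and 0.17), and these and Mcm2 not without BAT replicate 1 (0.16, 0.11 and 0.082).

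WAT replicate 1 stood apart from the other WAT libraries in some genes. In 13 of 518 tested members of the lists it differed from both other WAT libraries by at least 0.75 on the log2 scale, 8 lower and 5 higher. The same count is not given here for the other libraries. It therefore cannot show whether this library stood apart more than they did. Thrsp, a lipogenic gene of the adipocyte list, had 380.4, 915 and 805 FPKM in WAT cells and 1061, 1092 and 1174 FPKM in BAT cells (0.87 ± 0.31, adjusted p = 0.033), and the difference without this library was 0.23, adjusted p = 0.37. It was also not called without either BAT replicate (without BAT replicate 1, 0.89, adjusted p = 0.093; without BAT replicate 2, 0.84, adjusted p = 0.11). Cxcl13, a chemokine, had 13.8, 52.8 and 50.3 FPKM in WAT cells and 27.5, 29.1 and 26.8 FPKM in BAT cells (0.05 ± 0.42, adjusted p = 0.93), and without WAT replicate 1 it was lower in BAT cells (-0.88, adjusted p = 0.0022). Agt, angiotensinogen, had 145, 438 and 414 FPKM in WAT cells and 403, 387 and 432 FPKM in BAT cells (0.65 ± 0.36, adjusted p = 0.15), and -0.15 without that library. Among the 408 called members, 21 calls were lost without WAT replicate 1, 30 without WAT replicate 2, 33 without BAT replicate 1 and 34 without BAT replicate 2, and 0 changed direction.

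The depot difference was next compared with that of control cells on day 4, at the end of induction, by an interaction term. The oxidative and thermogenic differences were larger on day 8. The term was called in 5631 genes (40.0%), 2089 of them with a higher signed difference (BAT minus WAT) on day 8 (14.8%) and 3542 with a lower one (25.1%). This split followed the scaling, with 2967 genes higher and 2507 lower with median-ratio factors, and 2531 higher and 2889 lower once quantiles were equalised. A higher difference on day 8 was called in 33 of 36 genes of complex I, 16 of 17 of the citric acid cycle, 16 of 17 of fatty acid oxidation and 13 of 17 thermogenic effectors. Their median differences on day 4 were 0.51, 0.62, 0.52 and 0.28, against 1.07, 1.35, 1.28 and 1.28 on day 8. The change with day was not particular to these lists. A higher difference on day 8 was called in 12 of 13 skeletal muscle markers (median -1.24 on day 4, 0.39 on day 8). A lower one was called in 12 of 12 macrophage markers (1.06 and -0.43) and 17 of 19 cell cycle genes (0.70 and -0.10).

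Mb had the highest term for day among the genes that met the rule for naming. On day 4 it had 0.969, 1.01 and 1.54 FPKM in WAT cells and 0.382, 0.663 and 0.323 FPKM in BAT cells (log2 difference -0.39 ± 0.16), so the interaction term was 4.37 ± 0.22 (adjusted p = 5e-07). Cox8b, at 4.63, 5.35 and 6.91 FPKM in WAT cells and 3.5, 4.24 and 4.11 FPKM in BAT cells on day 4, followed (3.74 ± 0.32, adjusted p = 1e-05). Ucp1 had 0.178, 0.0567 and 0.0371 FPKM in WAT cells and 0.423, 0.243 and 0.217 FPKM in BAT cells on day 4 (2.66 ± 0.15, adjusted p = 8e-07). The immediate early genes Egr1 and Fos reversed, since on day 4 they were lower in BAT cells (-1.38 ± 0.23 and -0.91 ± 0.10). Egr1 had 139, 132 and 155 FPKM in WAT cells and 50.7, 52.4 and 58.7 FPKM in BAT cells on day 4, and 31.2, 14.4 and 19.7 FPKM and 106, 107 and 109 FPKM on day 8 (3.65 ± 0.32, adjusted p = 1.2e-05). For Fos the term was 3.59 ± 0.15 (adjusted p = 1.3e-07). Egr1, Prg4 and Chchd10, named here and below, overlap other annotated genes.

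In the opposite direction, Mmp3 had 294, 301 and 311 FPKM in WAT cells and 139, 116 and 138 FPKM in BAT cells on day 4, so that the gap widened by day 8 (-4.19 ± 0.29, adjusted p = 2.8e-06). Reg1 had 0.958, 1.75 and 1.26 FPKM in WAT cells and 2.6, 2.47 and 3.46 FPKM in BAT cells on day 4 (-4.51 ± 0.35, adjusted p = 5.5e-06). Prg4, the lubricating proteoglycan of joints, was higher in BAT cells on day 4 (0.82 ± 0.21) and lower on day 8 (-3.09 ± 0.21; interaction -3.91 ± 0.29, adjusted p = 4.1e-06). The same was seen for E030010N08Rik, named Crocc2 in RefSeq (-3.75 ± 0.25, adjusted p = 2e-06). Of the 25 Hox genes tested, 0 had a higher and 12 a lower difference on day 8 (9 lower with median-ratio factors, 8 with equalised quantiles). The posterior genes Hoxa9 (-0.26 ± 0.15), Hoxa10 (0.06 ± 0.11) and Hoxc9 (-0.27 ± 0.15) were not among them, with adjusted p of 0.21, 0.72 and 0.19. Hoxc10 had 8.5, 6.89 and 9.68 FPKM in WAT cells and 0, 0.0582 and 0 FPKM in BAT cells on day 4 (-0.20 ± 0.13, adjusted p = 0.25), and the Zic1 difference was larger on day 4 (-1.27 ± 0.11, adjusted p = 1e-05).

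In cells given EGCG, on day 8, the oxidative difference between the depots was near 0. The interaction of depot and treatment, as the difference in control cells minus that in EGCG cells, was called in 5520 genes (39.2%), with 2782 higher (19.7%) and 2738 lower (19.4%) in control cells. It was higher in 35 of 36 genes of complex I, 16 of 17 of the citric acid cycle, 16 of 17 of fatty acid oxidation and 13 of 17 thermogenic effectors. Their median differences in EGCG cells were 0.16, 0.15, -0.00 and 0.04. Both interaction contrasts use the same day 8 control libraries and are not independent of each other. WAT EGCG replicate 3 had 61.0% of its reads on 5 genes and is not in these tests. FPKM are scaled to all reads on genes, so those 5 genes lower its values for the other genes below.

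Cox7a1 had 7.98, 6.96 and 3.49 FPKM in WAT cells and 2.87, 3.64 and 4.3 FPKM in BAT cells with EGCG, a difference of -1.0 ± 0.15 that opposed that of control cells (interaction 4.11 ± 0.21, adjusted p = 1.9e-07). Chchd10, a mitochondrial intermembrane protein, had 45.8, 46.2 and 59.6 FPKM in WAT and 287, 289 and 339.8 FPKM in BAT control cells, and 20.5, 23.4 and 10.2 FPKM and 10.7, 10.3 and 13.4 FPKM with EGCG (3.61 ± 0.13, adjusted p = 3.3e-08). Ucp1 was at 0 in all 3 BAT libraries with EGCG (2.93 ± 0.15, adjusted p = 2.1e-07). The terms of Mb (4.04 ± 0.22) and O3far1 (3.79 ± 0.25) were of similar size, with adjusted p of 3.2e-07 and 1.1e-06. With EGCG, O3far1 was near 0 in both depots (0.221, 0 and 0.0689 FPKM in WAT cells, 0.0153, 0.0407 and 0.0832 FPKM in BAT cells). Its term therefore largely restates the difference in control cells. Mb was still measurable with EGCG (4.1, 2.88 and 1.32 FPKM in WAT cells, 2.78, 3.79 and 5.4 FPKM in BAT cells). Car3, a carbonic anhydrase abundant in adipocytes, had 1197, 1358 and 993 FPKM in WAT and 1895, 1904 and 1649.8 FPKM in BAT control cells, and 3.48, 3.38 and 1.08 FPKM and 74.5, 64.5 and 53.9 FPKM with EGCG (-3.41 ± 0.23, adjusted p = 1.2e-06). Its difference in control cells (0.58 ± 0.16) was not called without WAT replicate 1 (0.48, adjusted p = 0.069).

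Mup17 was near 0 in both depots with EGCG (0.249, 0.244 and 0.0777 FPKM in WAT cells, 0.253, 0.347 and 0.50 FPKM in BAT cells; -3.67 ± 0.21, adjusted p = 4.3e-07). Ptgs2, the inducible cyclooxygenase, was higher in BAT cells with EGCG (2.48 ± 0.26) and lower in control cells (-0.81 ± 0.26; interaction -3.29 ± 0.36, adjusted p = 4e-05). Apol9a, an apolipoprotein L gene, had 8.49, 10.0 and 10.8 FPKM in WAT and 0.793, 0.82 and 1.76 FPKM in BAT control cells, and 0.386, 0.617 and 0.171 FPKM and 1.11, 1.74 and 2.17 FPKM with EGCG (-3.18 ± 0.20, adjusted p = 7.7e-07). Mmp3 was lower in BAT cells with EGCG as well (-5.45 ± 0.21), with an interaction of 0.04 ± 0.29 (adjusted p = 0.93).

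**Figure D5:**
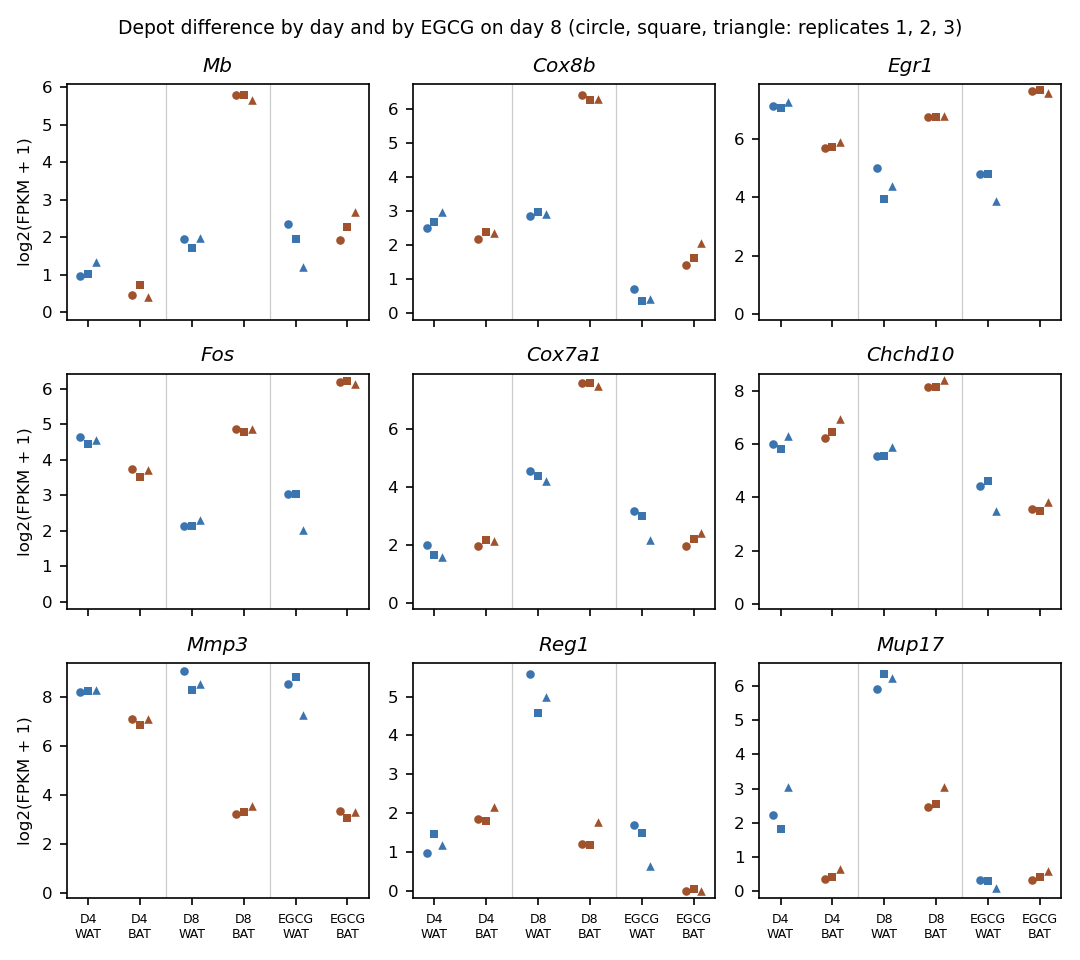
Values of 9 genes as log2(FPKM + 1) on the y axis, in WAT (blue) and BAT (brown) control cells on day 4, control cells on day 8 and EGCG cells on day 8, with replicates 1, 2 and 3 as circle, square and triangle. Mb, Cox8b, Cox7a1 and Chchd10 separate the depots most on day 8 without EGCG, Egr1 and Fos are lower in BAT cells on day 4 and higher on day 8, and Mmp3 is lower in BAT cells in each pair of groups.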

How the data were processed

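RNA-seq values of 24 libraries were used, 6 of them for the comparison reported. The authors deposited FPKM values in 2 tables, 16 libraries of replicates 1 and 2 and 8 libraries of replicate 3, made separately, each with 37310 genes. The submitters' processing notes name FastQC 0.11.9, HISAT2 2.2.0, HTSeq 0.11 and the genome build mm9. Whether counting used the strand is not given in the sources used here. Gene length equalled that of the longest transcript in GENCODE vM1 (NCBIM37, mm9) for all 37310 genes, and symbols and coordinates come from that annotation. Multiplying FPKM by length gave whole multiples of 1 read for 100% of the values (tolerance 0.01), from which the reads were recovered.

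Testing was limited to genes with 1 FPKM or more in 2 or more of the 16 libraries of replicates 1 and 2. In limma 3.58.1 under R 4.3.3, log2(FPKM + 1) was modelled with a mean for each of the 8 groups, which shared the estimate of the spread, and variances were moderated with a mean trend. Residual degrees of freedom were 8, and 11.4 after moderation. P-values are two-sided, with Benjamini-Hochberg adjustment over all genes tested. The pseudocount of 1 understates the change of low genes. Tables and figures used Python 3.11.15, pandas 2.3.3, numpy 2.4.6 and matplotlib 3.10.9. The fit was tested on simulated data. A few genes that entered the fits and counts are not reported here by name or value.

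The comparison and the gene lists were chosen with earlier results of these data known. All 621 entries of 37 lists were matched, 1 through another symbol, and 5 of the lists were added after values were seen. Named genes are the 12 highest and 12 lowest log2 differences (4 and 4 per interaction) among called genes with a mean of at least 5 FPKM in the higher group (for interactions, in 1 of the groups) and the same direction in replicate 3, which was not asked of the interaction with EGCG. Alternatives were the pseudocount, the filter, median-ratio and quantile scaling, other sets of libraries, a replicate block, precision weights and leaving out each replicate. Hoxa3 and Ndufb8 have 2 identifiers, of which the one with more reads was used. Replicates 1 and 2 of WAT control cells on day 8 differed more than those of the other groups (SD of their log2 ratio 0.266, against 0.176 to 0.209), and replicates 1 and 2 of no group agreed within sampling noise.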

Additional observations from a re-analysis of the deposited data

Results flagged for a closer look

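The depot difference itself differed between days and between treatments by the test of the interaction. Between day 8 and day 4 in control cells it did so in 5631 genes, and between control and EGCG cells on day 8 in 5520. By day, the named genes with a higher signed difference (BAT minus WAT) on day 8 were Mb (4.37), Cox8b (3.74), Egr1 (3.65) and Fos (3.59). Those with a lower signed difference on day 8 were Reg1 (-4.51), Mmp3 (-4.19), Prg4 (-3.91) and E030010N08Rik (-3.75). By treatment, the signed difference was higher in control than in EGCG cells for Cox7a1 (4.11), Mb (4.04), O3far1 (3.79) and Chchd10 (3.61). It was lower in control cells for Mup17 (-3.67), Car3 (-3.41), Ptgs2 (-3.29) and Apol9a (-3.18). All values are interaction terms on the log2 scale. With 3 samples per group, no group was large enough for a test of outlying samples.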

How the results depend on the processing

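Of the named genes, 560 values under other settings kept their direction and their call, and 0 were reversed. These genes were chosen for large differences, and the settings refitted largely the same libraries. This outcome was therefore likely in advance and says little about genes with smaller differences. Of the counts, 446 stayed within 1.5 times and 14 moved further. A pseudocount of 0.1 gave 1562 genes with at least a 2-fold difference, and 1308 for the interaction with day. A minimum of 5 FPKM left 7 higher brown regulators, 4 higher and 4 lower Hox genes. The 4 compared libraries alone gave 5101 calls, 1972 of them lower, and 7 higher lipogenesis genes. Leaving out 1 library in turn gave 6464 to 7163 calls, 6 to 10 higher Hox genes, and 4740 to 5764 and 4752 to 5726 calls for the interactions with day and with EGCG.

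Same-numbered replicates did not deviate together (r = -0.00354 for replicates 1 and 2), and with replicate 3 included the correlation was 0.664, 0.725 and 0.922 within a number but also 0.667 and 0.724 between numbers 1 and 2, which share a table, so the numbers were not taken to pair the samples. With the replicate block, replicates 1 and 2 gave 7495 calls. A replicate block over all 24 libraries gave 2722 calls (1735 higher, 987 lower), with 6 higher Hox genes, 11 higher mitochondrial ribosomal proteins and 7 lower progenitor genes. Without WAT EGCG day 8 replicate 3, the library with 61.0% of its reads on 5 genes, the same block gave 8204, and the 6 compared libraries alone gave 6346, where 28 of the 408 called list members lost their calls and 0 changed direction. Both of these fits were chosen after seeing the data. Recovered reads with precision weights gave 6191. Depth limits Ucp1, Cidea, Pax3, Hoxa10 and Hoxc10, whose lower group had 0 to 8 reads over its 3 libraries.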

Other observations

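Interferon-stimulated genes were lower in BAT control cells on day 8 in all 29 members of a list that was chosen after values had been seen (median -1.47, against 0.05 over all genes tested). Their summed level was 956 to 1019.8 FPKM in WAT cells and 284 to 384 FPKM in BAT cells, and BAT replicate 1 lay above both other BAT libraries. Oas2, an antiviral synthetase of oligoadenylates, had 30.5, 30.5 and 25.6 FPKM in WAT cells and 2.84, 2.1 and 2.76 FPKM in BAT cells (-3.19 ± 0.13, adjusted p = 8.7e-09). Bst2, a membrane tether of virus particles, had 262, 259.9 and 271 FPKM in WAT cells and 74.5, 60.8 and 82.3 FPKM in BAT cells (-1.94 ± 0.14, adjusted p = 5.6e-07). Ifit1 had 35.5, 34.7 and 28.7 FPKM in WAT cells and 18.5, 9.68 and 9.74 FPKM in BAT cells (-1.32 ± 0.33, adjusted p = 0.0052), and was not called without BAT replicate 2 (-0.89, adjusted p = 0.063), nor was Mx2 (-0.48, adjusted p = 0.067). In EGCG cells the median of the list was 0.26, and the interaction of depot and treatment was called lower in 29 of 29 genes. On day 4 the median was -0.59, and 18 of the 29 genes had a lower difference on day 8.

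Of 20 tested chemokines of 25, a list of the same kind, 1 was higher, 12 lower and 7 not called in BAT cells, and 11 of the 13 called had the same direction in replicate 3. The exceptions, Ccl3 and Cxcl9, were not called with a replicate block over the 6 libraries (-0.36, adjusted p = 0.23 and -0.30, adjusted p = 0.28), nor were Ccl7 (-0.92, adjusted p = 0.078) and Ccl9 (-0.31, adjusted p = 0.077). Cxcl10 was not called without WAT replicate 1, WAT replicate 2 or BAT replicate 2 (adjusted p of 0.052, 0.061 and 0.13). Ccl3 and Ccl9 were not called without WAT replicate 1 (0.072 and 0.15), and these and Ccl27a not without BAT replicate 1 (0.082, 0.13 and 0.054). Cxcl14 had 45.1, 35 and 42.3 FPKM in WAT cells and 9.79, 11.6 and 11.5 FPKM in BAT cells (-1.81 ± 0.13, adjusted p = 4.3e-07). The higher gene was Cx3cl1 (0.51 ± 0.14, adjusted p = 0.0075), a call lost without WAT replicate 2 (0.31, adjusted p = 0.077) and without BAT replicate 2 (0.43, adjusted p = 0.059). Of 20 immediate early genes, again chosen after values were seen, 10 were higher, 2 lower and 8 not called. Fos had 3.4, 3.43 and 3.95 FPKM in WAT cells and 28.4, 26.3 and 28 FPKM in BAT cells (2.68 ± 0.10, adjusted p = 5.8e-09), and Ier2 had 16, 13.3 and 19.4 FPKM in WAT cells and 47.6, 50.7 and 62 FPKM in BAT cells (1.68 ± 0.09, adjusted p = 5.4e-08), while Fosb, Fosl2, Jun and Jund were not called.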
